A study of Mus musculus with 2 samples.

Results

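Thymic epithelial cells make cytokines that keep lymphoid progenitors alive, and 9 genes for such factors were followed here: Il7, Kitl, Flt3l, Tslp, Il15, Il18, Il33, Il34 and Csf1. They were taken by symbol from a list chosen for function, and all 9 were found among the 25791 genes of the deposited tables. The study sequenced RNA of epithelial cells from the fetal mouse thymus at 15 days post coitum, sorted as CD45- PDGFRa- EpCAM+, to compare epithelium with and without developing thymocytes. The library titled B6J came from C57BL/6 mice and the library titled humanCD3eTg from mice of a C57BL/6J x CBA/J background, 1 per group. Strain therefore differs between the groups together with the transgene, and the share of each cannot be told apart. The treatment label of B6J says that thymocytes were absent and that of humanCD3eTg that they were present, whereas mice with many copies of human CD3E are generally known to lack T cells. Groups are therefore called by the titles of the libraries. How many fetuses entered each library is not given in the sources used here. With 1 library per group no test was possible and no difference has a replicate check.

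The cytokines act through a few shared receptors. IL-7 and TSLP both use the IL-7 receptor alpha chain, which pairs with the common gamma chain for IL-7 and with the CRLF2 chain for TSLP, and IL-15 is held on its own alpha chain and shown to cells that carry the IL-2 receptor beta and common gamma chains. Kit ligand, FLT3 ligand and the CSF1R ligands CSF1 and IL-34 bind receptor tyrosine kinases of progenitors and macrophages. IL-18 and IL-33 belong to the IL-1 family, lack a classical secretion signal and signal through MyD88. In the thymus IL-7 and Kit ligand are known as the main epithelial growth factors of the earliest T cell progenitors.

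Values are FPKM, fragment numbers divided by the length of the transcript and the size of the library, which can be compared between genes because they are scaled by length. Low values fall on steps worth 1 fragment, from which about 19900000 fragments were estimated for B6J and 15900000 for humanCD3eTg. Intervals given below are 95% intervals for counting error from fragments estimated in this way. They hold no spread between mice or sorts, and they use the shortest coding transcript of each gene, which makes them wide. Log2 ratios are those of humanCD3eTg over B6J on FPKM + 1, a scale that understates differences of low genes. The epithelial markers were high in both libraries, with Epcam, the sort marker, at 174 FPKM in B6J and 231 FPKM in humanCD3eTg, and Foxn1, the master factor of thymic epithelium, at 91.1 and 43.7 FPKM. Foxn1 was thus 2.08-fold lower in humanCD3eTg (1.98 to 2.19, log2 ratio -1.04). Of the 8 listed epithelial markers 5 were lower there and 3 higher, with a median log2 ratio of -0.07.

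Of the 9 cytokine genes 8 were above 0 in both libraries, and 7 had a mean of at least 1 FPKM, the level required for counting. Among these 7, Il34 was at least 2-fold lower in humanCD3eTg and Il33 at least 2-fold higher. Il34, at 3.25 FPKM in B6J and 0.462 FPKM in humanCD3eTg, reached the mean of 1 FPKM only through B6J. Over all 13493 genes of that level, 4.47% lay past the 2-fold limit downwards and 2.10% upwards. The counts among the cytokines are thus 1 of 7 in each direction, too few to set the group apart from other genes. In all, 6 of the 7 were lower and 1 higher, with a median log2 ratio of -0.32, where of all 13493 counted genes 7474 were lower and 6019 higher, with a median of -0.05. In FPKM itself the differences of the 7 ran from 1.02-fold for Il7 to 7.03-fold for Il34, while on FPKM + 1 those of Il33 and Il34 were about equal in size (log2 ratios 1.55 and -1.54).

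**Figure D1:**
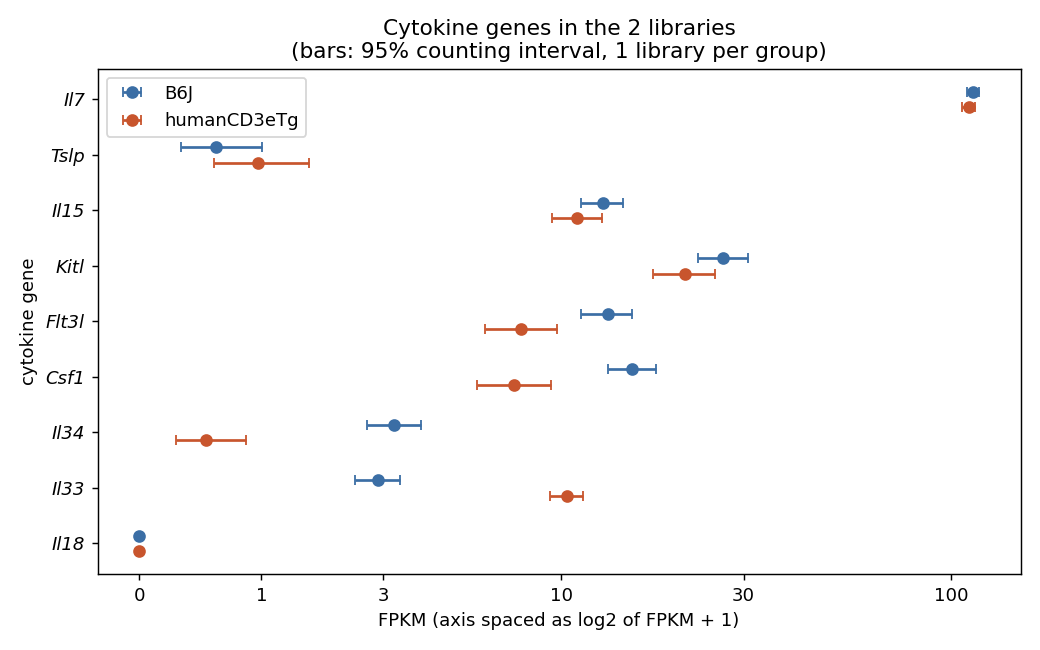
FPKM of the 9 cytokine genes (vertical axis) in the library titled B6J (blue) and the library titled humanCD3eTg (orange), on an axis spaced as log2 of FPKM + 1. Bars are 95% counting intervals with 1 library per group, and Il18 is listed at 0 and has none. Il7 lies above all others at 113 and 111 FPKM, Il34 and Csf1 are lower in humanCD3eTg, and Il33 is higher there.

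Il7, the cytokine that early thymocytes need for survival and growth, was the most abundant of the group. It stood at 113 FPKM in B6J (interval 109 to 117) and 111 FPKM in humanCD3eTg (107 to 115). The libraries thus held nearly the same level, 1.02-fold lower in humanCD3eTg with an interval from 0.972 to 1.07 and a log2 ratio of -0.03. Il7 lay above 95.5% of the genes detected in B6J and above 95.0% of those in humanCD3eTg. Cortical epithelial markers, all 8 of which were lower in humanCD3eTg with a median log2 ratio of -0.55, include Dll4, the epithelial Notch ligand, at 38.9 and 26.0 FPKM. None of the 8 was at least 2-fold lower, and over all counted genes 7474 of 13493 were lower (median -0.05). Il7 made up 60.1% of the summed FPKM of the 9 genes in B6J and 65.1% in humanCD3eTg, while the sum of the other 8 was 75.0 and 59.2 FPKM. In GENCODE M21 an exon of Il7 overlaps Gm16685 on the opposite strand, and use of strand is not given in the sources used here.

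Tslp, which shares the alpha chain of the receptor with Il7, was close to the lower end of detection. It stood at 0.544 FPKM in B6J and 0.956 FPKM in humanCD3eTg, resting on an estimated 10 and 14 fragments. The fold was 1.76 towards humanCD3eTg with an interval from 0.726 to 4.42, so a difference in either direction was not detectable at this depth. The level of Il7 was 208 times that of Tslp in B6J and 116 times in humanCD3eTg.

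Il15, a factor for innate lymphocytes and intraepithelial T cells, stood at 12.9 FPKM in B6J and 11.0 FPKM in humanCD3eTg. The fold was 1.17 towards B6J, with an interval from 0.956 to 1.43. Il15ra, which presents IL-15 on the cell surface, exceeded its ligand in both libraries, at 54.6 and 28.7 FPKM. It was 1.90-fold lower in humanCD3eTg (1.52 to 2.36), so that Il15ra stood at 4.22 times the level of Il15 in B6J and at 2.60 times in humanCD3eTg. Il15 is generally known as an interferon target. In the list of interferon and IRF regulators 15 of 16 counted genes were lower in humanCD3eTg and 8 at least 2-fold (median log2 ratio -0.85), with Psmb9, an immunoproteasome subunit gene, at 198 and 62.2 FPKM and Cxcl10, an interferon-induced chemokine gene, at 449.7 and 179.8 FPKM. Over all counted genes 7474 of 13493 were lower, and 4.47% were 2-fold lower or more. Thymocyte, leukocyte, endothelial and cortical epithelial markers (medians -2.85, -1.96, -1.69 and -0.55) were lower in the same library as the interferon list, and their part was not tested.

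The 4 ligands of receptor tyrosine kinases were all lower in humanCD3eTg, by unequal amounts. Among all counted genes 7474 of 13493 were lower. Kitl, the ligand of KIT on progenitors, was second in level in the group, at 26.6 FPKM in B6J (23.0 to 30.8) and 21.2 FPKM in humanCD3eTg (17.5 to 25.3). Kitl was 1.26-fold lower there with an interval from 0.995 to 1.60. This interval rests on the shortest coding transcript of Kitl, of 564 bases, whereas the longest has 5648. A longer transcript gives more fragments and a narrower interval, so whether equality lies within it depends on the length chosen. Flt3l, which supports lymphoid progenitors and dendritic cells, stood at 13.3 FPKM in B6J (11.3 to 15.5) and 7.75 FPKM in humanCD3eTg (6.14 to 9.72). These intervals do not overlap, and the gene was 1.72-fold lower (1.30 to 2.27, log2 ratio -0.71). Flt3l shares exons on its own strand with the annotated gene Gm45713, so its value may include reads of that gene.

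Csf1, the growth factor of macrophages, stood at 15.4 FPKM in B6J (13.3 to 17.8) and 7.42 FPKM in humanCD3eTg (5.81 to 9.35). It was 2.08-fold lower (1.58 to 2.77) in FPKM. On FPKM + 1 its log2 ratio of -0.96 fell just short of the 2-fold limit. Il34, the other ligand of the same receptor, stood at 3.25 FPKM in B6J (2.63 to 3.96) and 0.462 FPKM in humanCD3eTg (0.231 to 0.827). In FPKM this level was 7.03-fold lower (3.76 to 14.5), with a log2 ratio of -1.54 on FPKM + 1, and it rests on an estimated 97 and 11 fragments. Exons of Il34 overlap Gm15894 and Gm15895 on the opposite strand. Csf1 and Il34 together stood at 18.7 and 7.89 FPKM, and Il34 made up 17.4% of this sum in B6J and 5.86% in humanCD3eTg.

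Thymocyte, leukocyte and endothelial markers moved by their medians in the same direction as Flt3l, Csf1 and Il34, but other cell types did not all do so. Pigment cell and neural crest markers were higher in 10 of 10 counted (median 2.39). Some of these markers reach the mean of 1 FPKM only through humanCD3eTg, such as Sox10 at 0.776 and 11.6 FPKM. Macrophage and dendritic cell markers were lower in 3 and higher in 2 of 5 (median -0.29). All 12 counted thymocyte markers were lower in humanCD3eTg, 11 of them at least 2-fold (median log2 ratio -2.85), and the summed level of the 14 listed markers was 198 FPKM in B6J and 14.2 FPKM in humanCD3eTg, where Cd3d, Cd3g and Rag2 were listed at 0. This goes against the treatment labels. Of 10 counted leukocyte markers 8 were lower, all 8 at least 2-fold (median -1.96), with Ptprc, which encodes CD45, at 4.18 and 0.358 FPKM and a summed level of 79.9 and 13.5 FPKM over the 11 listed. All 9 counted endothelial markers were at least 2-fold lower (median -1.69), with a summed level of 55.1 and 9.59 FPKM over the 10 listed and none at 0. Over all counted genes 4.47% were at least 2-fold lower. Some markers of these 3 lists reach the mean of 1 FPKM only through B6J, such as Kdr of endothelium at 3.51 and 0.396 FPKM. Mesenchymal markers were lower in 5 and higher in 4 of 9 (median -0.05), and their summed level over the 10 listed was 198 and 236 FPKM. The part of any of these cells in the levels of Flt3l, Csf1 and Il34 was not tested, and in bulk RNA fewer cells of a type and less RNA per cell cannot be told apart.

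**Figure D2:**
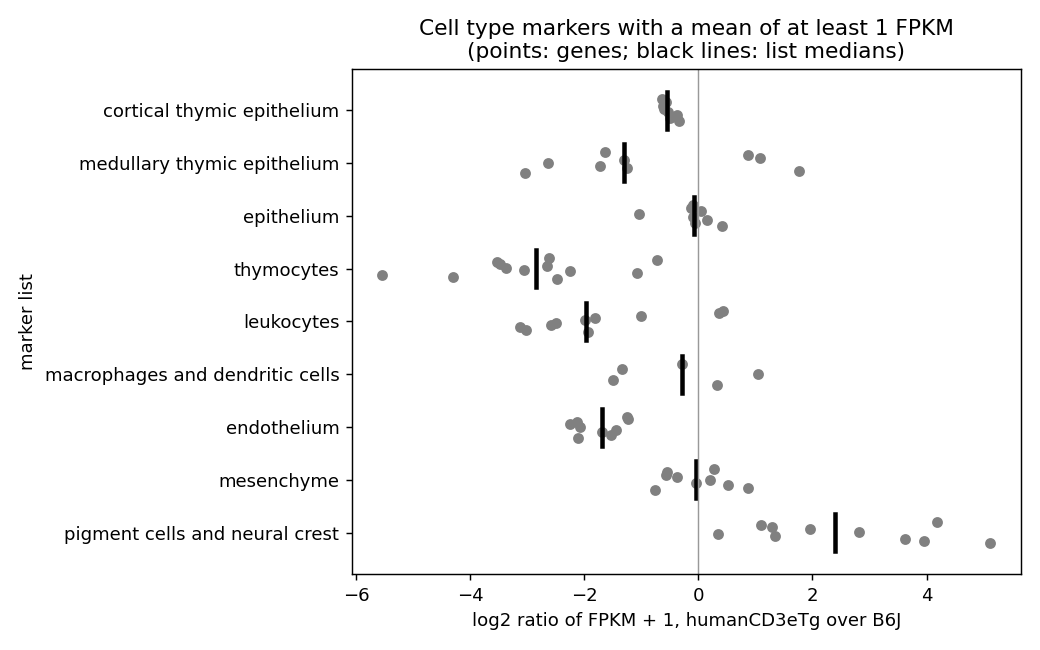
Log2 ratio of FPKM + 1, humanCD3eTg over B6J (horizontal axis), for the counted markers of each cell type. Points are genes and black lines list medians, from -2.85 for thymocytes to 2.39 for pigment cells and neural crest.

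Promoter sequences are shown for Flt3l and Csf1, which were lower together, so that the letters before their starts can be compared. RefSeq promoters on GRCm38.p6 matched 5 of the 9 genes (Csf1, Flt3l, Il18, Kitl and Il33). The window of 250 bases ends at the base before the annotated start and is printed in the direction of the gene, which for these genes is the minus strand. Capitals mark matches, on either strand, to 1 of 3 motifs: GAAANNGAA, the core of the interferon-stimulated response element, TTCNNNGAA, a STAT site, and GGGNNTTTC, an NF-kB site. The motifs can overlap in principle, but no window shown holds more than 1 match.
Csf1, chr3:107760470-107760719, minus strand: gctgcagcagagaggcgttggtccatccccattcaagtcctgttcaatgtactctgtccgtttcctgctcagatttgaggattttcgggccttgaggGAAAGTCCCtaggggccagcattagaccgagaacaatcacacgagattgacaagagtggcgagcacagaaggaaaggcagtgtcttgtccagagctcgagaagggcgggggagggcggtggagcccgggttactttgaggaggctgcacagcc
Flt3l, chr7:45136433-45136682, minus strand: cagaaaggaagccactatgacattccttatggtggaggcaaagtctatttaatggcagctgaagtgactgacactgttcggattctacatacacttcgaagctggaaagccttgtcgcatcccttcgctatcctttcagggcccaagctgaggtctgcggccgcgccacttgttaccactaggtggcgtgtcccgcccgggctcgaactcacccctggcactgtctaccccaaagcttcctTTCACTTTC
Csf1 held 1 match to the NF-kB letters, from 153 to 145 bases before its start, and Flt3l held 1 match to the interferon-stimulated response element letters, in the last 9 bases before its start. Among all 32851 promoters of the same length 3.72% held the NF-kB letters, 7.13% the interferon-stimulated response element letters and 7.02% the STAT letters. A match is a description of letters and not a site of binding.

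Il33, an alarmin of epithelial and stromal cells that is released on damage, went the other way. It stood at 2.87 FPKM in B6J (2.40 to 3.40) and 10.3 FPKM in humanCD3eTg (9.33 to 11.4), and the intervals lie far apart. The gene was 3.60-fold higher in humanCD3eTg (2.95 to 4.42, log2 ratio 1.55), resting on an estimated 133 and 382 fragments. Pigment cell and neural crest markers were higher in the same library, 10 of 10 counted and 9 at least 2-fold (median log2 ratio 2.39), with a summed level of 12.2 and 174 FPKM over the 11 listed. Of these, Mlana, a melanosome gene, was listed at 0 in B6J and Tyrp1 at 0 in both. Krt5, a basal keratin on the medullary list, was also higher in humanCD3eTg, at 280.2 and 955.5 FPKM. Of the 9 counted medullary markers 3 were higher and 6 lower, all 6 at least 2-fold (median log2 ratio -1.31). Among the lower ones, Krt14, another keratin, stood at 22.9 and 9.05 FPKM, and Cd80 and Fezf2 were listed at 0 in humanCD3eTg. The part of these cells in the level of Il33 was not tested.

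Il33 has more than 1 annotated start, and a gene-level FPKM does not tell them apart. The windows before the starts in RefSeq are shown because Il33 was the only cytokine of the group at least 2-fold higher. Both lie on the plus strand of GRCm38.p6, and neither held any of the 3 motifs, so no letters are in capitals.
Il33, upstream start, chr19:29924863-29925112: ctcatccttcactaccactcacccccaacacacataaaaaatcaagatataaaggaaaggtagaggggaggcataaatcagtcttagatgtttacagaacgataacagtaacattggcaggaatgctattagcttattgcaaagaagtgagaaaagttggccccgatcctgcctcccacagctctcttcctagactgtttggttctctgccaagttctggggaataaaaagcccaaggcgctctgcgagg
Il33, downstream start, chr19:29945540-29945789: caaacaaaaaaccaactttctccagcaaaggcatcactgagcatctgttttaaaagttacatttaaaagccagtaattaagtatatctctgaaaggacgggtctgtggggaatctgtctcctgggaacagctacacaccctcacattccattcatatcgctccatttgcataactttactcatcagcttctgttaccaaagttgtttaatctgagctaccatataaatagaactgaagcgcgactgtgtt
The absence of a match says only that these letters are not in these windows.

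Il18, the other IL-1 family member, was listed at 0 in both libraries. Such a 0 may reflect an estimate that failed, and 5790 genes (22.4% of all) were listed at 0 in both, so no level or limit is given. Il18bp, which encodes a secreted binding protein that neutralises IL-18, was detected at 12.0 FPKM in B6J and 3.32 FPKM in humanCD3eTg, 3.62-fold lower (2.71 to 4.89). Casp1, the protease that matures IL-18, was near the lower end of detection at 0.343 and 0.193 FPKM (named after its values were seen).

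The order of the levels changed between the libraries below the top places. In B6J it ran Il7, Kitl, Csf1, Flt3l, Il15, Il34, Il33, Tslp and Il18. In humanCD3eTg it ran Il7, Kitl, Il15, Il33, Flt3l, Csf1, Tslp, Il34 and Il18. Neighbours whose counting intervals overlap cannot be ordered by these intervals: in B6J these are Csf1 with Flt3l, Flt3l with Il15, and Il34 with Il33, and in humanCD3eTg they are Il15 with Il33, Il33 with Flt3l, Flt3l with Csf1, and Tslp with Il34. A longer transcript would narrow an interval. The narrow overlap of Il33 (9.33 to 11.4) with Flt3l (6.14 to 9.72) therefore depends on the length used for Flt3l, 834 bases, where its longest coding transcript has 1358. The ratio of Csf1 to Il33 in FPKM was 5.37 in B6J and 0.718 in humanCD3eTg. Among the genes whose values lay nearest to those of Il7, by distance in log2 of FPKM + 1 over the 2 libraries, were Polr2f (0.0210) and Dad1 (0.0297). With 2 points per gene this says only that their levels were alike.

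**Figure D3:**
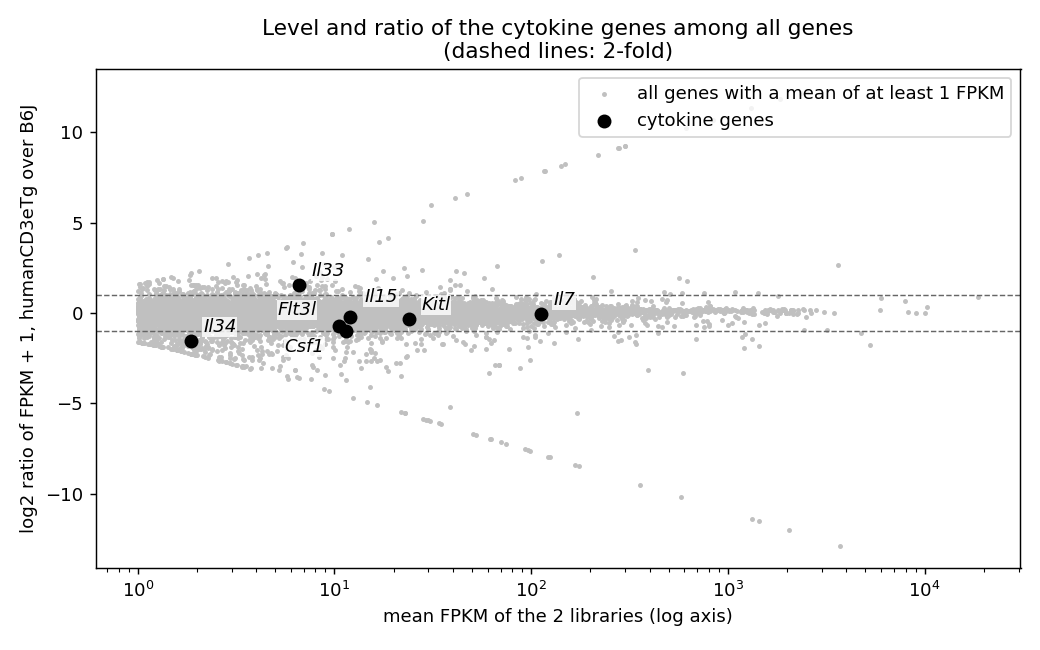
Mean FPKM of the 2 libraries (horizontal, log axis) against the log2 ratio of FPKM + 1, humanCD3eTg over B6J, for the 13493 counted genes (grey) and the 7 counted cytokine genes (black). Il33 at 1.55 lies above and Il34 at -1.54 below the dashed 2-fold lines, and Csf1 at -0.96 lies just inside. Grey points on the outer diagonal edges are genes listed at 0 in 1 library.

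Receptors of the cytokines differed in both directions. All 14 listed receptor genes were found and 7 were counted. Of these 5 were lower in humanCD3eTg and 2 higher, with a median log2 ratio of -0.46, and 1 passed the 2-fold limit in each direction. Among all counted genes 7474 of 13493 were lower, with 4.47% past that limit downwards and 2.10% upwards. Receptor counts of 1 of 7 each way are too few to set this list apart from other genes. Il2rg, the common gamma chain of lymphocytes, stood at 13.0 FPKM in B6J and 0.179 FPKM in humanCD3eTg (log2 ratio -3.57). It is the receptor counted as 2-fold lower, and it reached the mean of 1 FPKM only through B6J. Il7r, the receptor chain for IL-7 and TSLP, stood at 1.14 and 0.00323 FPKM, and Il2rb, the chain that binds IL-2 and IL-15, at 0.180 FPKM and listed at 0. These chains of lymphoid cells moved with the thymocyte markers (summed level 198 and 14.2 FPKM), whose part was not tested. Crlf2, the chain specific for TSLP, stood at 4.96 and 4.21 FPKM, a fold of 1.18 with an interval from 0.874 to 1.61.

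Kit, the receptor of Kit ligand on progenitors and also on pigment cell precursors, was higher in humanCD3eTg, at 4.01 and 13.3 FPKM (3.32-fold, 2.96 to 3.74, log2 ratio 1.52). It was the only counted receptor at least 2-fold higher, while its ligand Kitl was 1.26-fold lower. Kit moved with the pigment cell and neural crest markers (summed level 12.2 and 174 FPKM) and against the leukocyte markers (79.9 and 13.5 FPKM), and the part of either was not tested. Flt3, the receptor of FLT3 ligand, was at 0.304 and 0.110 FPKM.

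Csf1r, the receptor of CSF1 and IL-34 on macrophages, was low in both libraries, at 0.667 and 1.24 FPKM (1.86-fold higher in humanCD3eTg, 1.26 to 2.71). Macrophage and dendritic cell markers had no common direction, with 3 of 5 counted lower, 2 higher and a median log2 ratio of -0.29. Their summed level over the 11 listed was 26.8 and 20.1 FPKM, and none was listed at 0. Ptprz1, a further binding partner of IL-34, stood at 5.09 and 2.82 FPKM, and Sdc1, a proteoglycan that also binds it, at 25.4 and 18.3 FPKM. Il1rl1, the receptor of IL-33, was at 0.409 and 0.115 FPKM, and its partner chain Il1rap at 3.09 and 4.39 FPKM. Il18r1 and Il18rap, the receptor chains of IL-18, were at 0.244 and 0.0542 FPKM and at 0.175 and 0.304 FPKM. Thus Il15ra and Sdc1 were the receptor genes of the list with the highest levels in these sorted cells in both libraries.

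**Figure D4:**
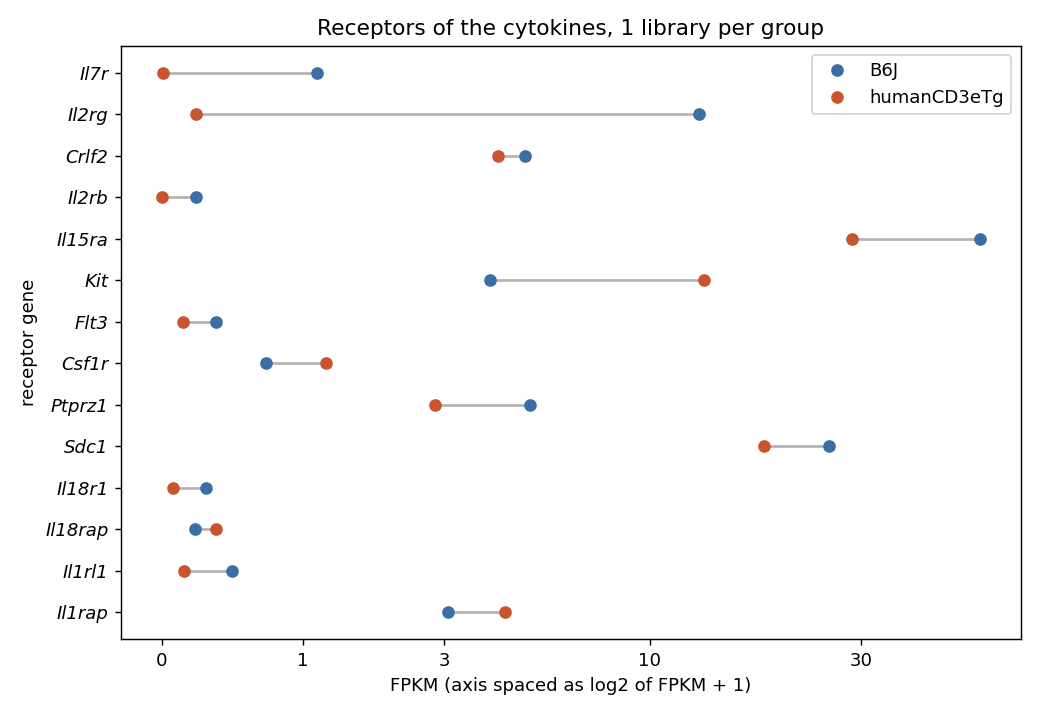
FPKM of the 14 receptor genes (vertical axis) in B6J (blue) and humanCD3eTg (orange), on an axis spaced as log2 of FPKM + 1, with 1 library per group. Il2rg shows the widest gap on this axis, at 13.0 and 0.179 FPKM, and Kit is higher in humanCD3eTg, at 4.01 and 13.3 FPKM.

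Genes for the maturation, release and binding of the cytokines were lower in humanCD3eTg. Of 18 listed genes 10 were counted, all 10 were lower (7474 of 13493 over all genes), 3 of them 2-fold or more (4.47% over all counted genes), with a median log2 ratio of -0.46. Gsdmd, whose product forms the membrane pores through which IL-1 family cytokines leave cells, stood at 36.6 and 4.45 FPKM (8.22-fold lower, 6.76 to 10.1). Mmp9, a protease known to release soluble Kit ligand, stood at 42.9 and 9.54 FPKM. Adam17, a sheddase of membrane-bound cytokines, stood at 11.8 and 9.18 FPKM. Il33 thus differed in the opposite direction from every counted gene of this list. Thymocyte, leukocyte, endothelial and cortical epithelial markers moved in the direction of the list (medians -2.85, -1.96, -1.69 and -0.55), and their part was not tested.

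For signalling genes behind the receptors the counts are read beside those of all genes, of which 7474 of 13493 were lower. Past the 2-fold limit lay 4.47% of all counted genes downwards and 2.10% upwards. In the JAK-STAT list 14 of 19 were lower and 5 higher, with 4 at least 2-fold lower, none at least 2-fold higher and a median log2 ratio of -0.30. Jak3, the kinase bound to the common gamma chain, stood at 24.8 and 5.62 FPKM, 4.42-fold lower, where Il2rg itself was 72.6-fold lower (29.2 to 279, on an estimated 379 and 4 fragments). Stat5a, a main transducer of IL-7 signals, stood at 6.61 and 2.37 FPKM, and its close relative Stat5b at 6.31 and 2.96 FPKM. Socs3, a feedback inhibitor of JAK signalling, stood at 165 and 56.7 FPKM. Among genes of kinase and TIR signalling 10 of 13 counted genes were lower and none differed 2-fold (median -0.23), with Myd88, the adaptor of the IL-18 and IL-33 receptors, at 19.8 and 11.6 FPKM. Both lists moved with thymocyte and leukocyte markers (medians -2.85 and -1.96) and with cortical epithelial markers (8 of 8 lower, median -0.55). The part of any of these cells was not tested.

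The calls of Il34 and Il33 depend on the pseudocount. With 5 in place of 1, Il34 had a log2 ratio of -0.59 and Il33 of 0.96, and neither passed the 2-fold limit, whereas with 0.1 Csf1 passed it as well, at -1.05.

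**Figure D5:**
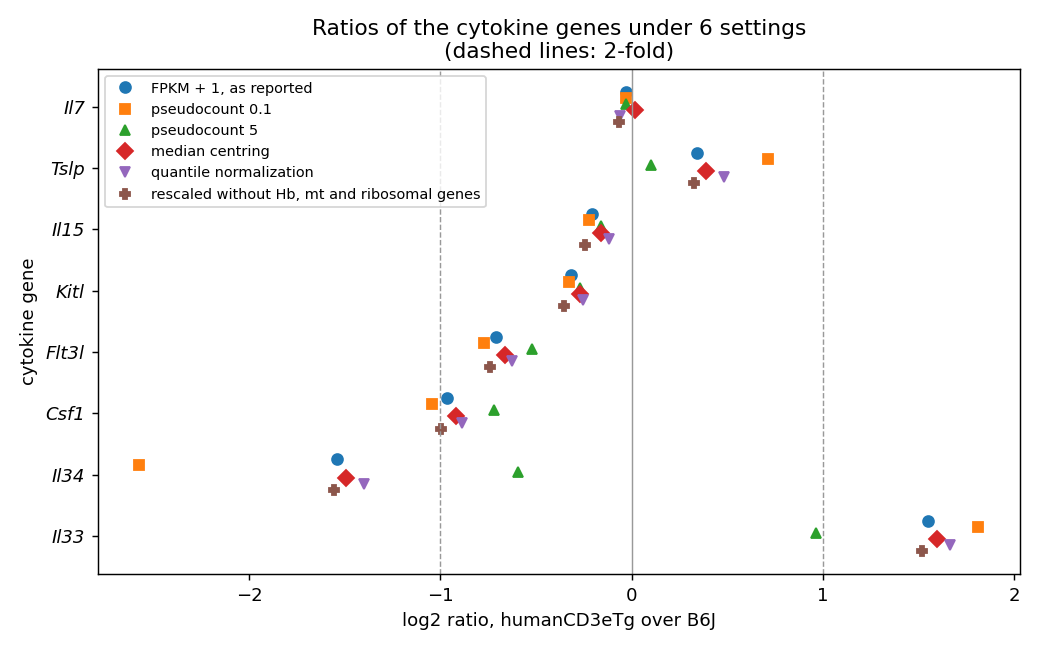
Log2 ratio, humanCD3eTg over B6J (horizontal axis), of the 8 detected cytokine genes under 6 settings of pseudocount and scaling, with dashed lines at 2-fold. Il34 runs from -2.57 to -0.59 and Il33 from 0.96 to 1.81, while Il7 stays between -0.07 and 0.02.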

How the data were processed

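For both libraries the authors deposited FPKM values, 1 for each symbol of 25791. Per the submitters' processing notes, the processing involved Cufflinks 2.1.1, TopHat2 2.0.8, Bowtie2 2.1.0 and mm9, with no roles stated. The annotation, filters and strand setting were not given in the sources used here. The cytokines, lists and alternatives were chosen with earlier results of these data known.

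Log2 ratios were computed on FPKM + 1, and genes were counted from a mean of 1 FPKM, with 2-fold as the limit. Fragments were estimated from the steps of low values of 414 and 324 genes with 1 annotated transcript, using GENCODE M21 lengths less 210 bases. The step was 0.0502 FPKM per fragment over 1 kb in B6J and 0.0630 in humanCD3eTg, and 57.7% and 61.4% of the values came within 0.1 of a whole fragment. A single arbitrary step would give 20%. The steps were picked as those with the highest such share among all tried on the same values, so the 20% is not a like comparison. No count test was run. Intervals are exact (Poisson for a level, Clopper-Pearson for a fold) and cover counting error only. Values of at most 0.001 FPKM are called listed at 0.

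All 9 cytokines and all their receptors were named, and from other lists up to 8 counted genes with the largest ratios. Exceptions, named after their values were seen, are markers listed at 0 and Casp1. Some genes that this rule takes are not reported here. Genome positions come from RefSeq on GRCm38.p6, a later build than that of the tables, and were used for sequences only. Python 3.11.15, pandas 2.3.3 and scipy 1.17.1 were used, and the computation was tested on simulated data. Alternatives were pseudocounts of 0.1 and 5, quantile normalization, median centring, a limit of 1.5-fold, no filter, a minimum mean of 5 FPKM, and rescaling after removal of ribosomal protein, mitochondrial and haemoglobin genes.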

Additional observations from a re-analysis of the deposited data

How the results depend on the processing

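Log2 ratios of the 8 detected cytokines kept their direction under every pseudocount and scaling tried, except Il7, which lay at -0.03 and turned to 0.02 with median centring. The number of cytokines at least 2-fold lower was 1, and it was 2 with a pseudocount of 0.1, 0 with a pseudocount of 5 and 0 with a minimum mean of 5 FPKM, a filter that Il34 does not pass. It was 3 with a limit of 1.5-fold. The number at least 2-fold higher was 1 and became 0 with a pseudocount of 5. The shares of all genes moved too, to 6.69% lower and 3.51% higher with a pseudocount of 0.1 and to 1.65% and 0.786% with 5. Under the pseudocounts and scalings tried, the median of the counted cytokines lay between -0.35 and -0.26. With no filter the median over all 9 was -0.21. The receptor median was -0.24 with no filter and -0.68 with a minimum mean of 5 FPKM. Depth limits Tslp (10 and 14 fragments) and Il34 in humanCD3eTg (11 fragments). No paired analysis was possible because each group has 1 library. Leaving out a library would leave nothing to compare.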

Other observations

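Other interleukins and colony-stimulating factors were mostly low in the sorted cells. Of 45 listed genes 11 were counted, having a mean of 1 FPKM or more. A further 15 were at 0 in both libraries and 9 in 1. The 11 had no common direction, with 5 lower in humanCD3eTg, 6 higher and a median log2 ratio of 0.07. Over all counted genes 7474 of 13493 were lower, with a median of -0.05. The 2 highest by mean belong to the IL-6 family. Ctf1, which encodes cardiotrophin 1, stood at 14.8 FPKM in B6J and 21.3 FPKM in humanCD3eTg, 1.43-fold higher there (95% counting interval 1.16 to 1.77), and Clcf1, which encodes a related cytokine, at 4.80 and 8.73 FPKM (1.82-fold higher, 1.47 to 2.24). Both stood above Tslp and differed in the direction of Il33. Il23a, which encodes a subunit of IL-23, was the single gene of the 11 past the 2-fold limit, at 6.62 and 2.51 FPKM (log2 ratio -1.12). Past this limit lay 4.47% of all counted genes downwards and 2.10% upwards. A count of 1 of 11 is too small to set this list apart from other genes. Il6 itself stood at 2.43 and 0.786 FPKM (3.10-fold lower, 1.09 to 8.45).

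Other epithelial signals to progenitors were lower in humanCD3eTg in 14 of 16 cases (median log2 ratio -0.48, beside 7474 of 13493 and -0.05 over all counted genes). Of them 3 were past the 2-fold limit downwards and 1 upwards, beside 4.47% and 2.10% of all counted genes. Vcam1, an adhesion molecule for progenitors that endothelium also expresses, stood at 79.9 and 18.9 FPKM (4.22-fold lower, 3.89 to 4.58), beside a summed level of endothelial markers of 55.1 and 9.59 FPKM, whose part was not tested. Tgfb1, a growth inhibitor of many cell types, stood at 15.7 and 9.21 FPKM. Bmp4 stood higher, at 2.06 and 8.75 FPKM.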
